A study of Mus musculus with 29 samples.

Results

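Polycomb group genes encode chromatin regulators that hold developmental and cell cycle genes silent. Polycomb repressive complex 1 (PRC1) ubiquitinates histone H2A, and its Cbx subunits read the trimethyl mark on histone H3 that Polycomb repressive complex 2 (PRC2) writes. The PR-DUB complex removes the ubiquitin from H2A. In blood, Bmi1 is needed for self-renewal of hematopoietic stem cells (HSC), and Asxl1 is among the genes that are recurrently mutated in myelodysplastic syndrome. The 9 genes described here were picked from the table by symbol, from a set drawn up with earlier results of these data known. They are Bmi1, Rnf2, Cbx2, Cbx7 and Cbx8 of PRC1, Ezh1, Suz12 and Eed of PRC2, and Asxl1 of PR-DUB. Each was found once among the 30025 genes of the table, and 9 of 9 passed the filter on low values that 15409 genes passed.

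The RNA-Seq libraries came from WT mice and from 5A3+/del mice, which carry a heterozygous germ line deletion on chromosome 5 on a C57BL/6J background. The deletion was made with Cre in embryonic stem cells and is present in every cell of the mouse. An effect on expression in these libraries therefore cannot be assigned to blood cells alone. For repopulation, the paper transplanted CD150hi HSC into recipients of both genotypes and concluded that the defects are cell intrinsic. Cells with the K+L-S+CD41-CD48- phenotype (c-kit positive, lineage negative, Sca-1 positive) were sorted by surface CD150 into CD150hi HSC, CD150lo HSC and CD150neg multipotent progenitors (MPP), the last of which the labels call CD150neg HSC. Ages ranged from 12.42 to 13.85 weeks. There were 29 libraries from 5 mice per genotype, with 5 libraries in each of the groups except 5A3+/del CD150neg MPP, which has 4. Mice are numbered 1 to 5 within a genotype, and a number marks the same animal in all 3 populations, but WT mouse 1 and 5A3+/del mouse 1 are different animals.

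Libraries held 21229490 to 38797569 fragments, as inferred from the deposited FPKM values. The 10 genes that lie between Fbxl13 and Srpk2 and passed the filter had a median ratio of 5A3+/del to WT mean FPKM of 0.542, 0.545 and 0.457 in CD150hi HSC, CD150lo HSC and CD150neg MPP. Single genes varied widely, with ratios from 0.0497 to 0.981, 0.339 to 0.838 and 0.143 to 1.09 in the same order. No Polycomb gene of the 9 lies on chromosome 5. Slamf1, which encodes CD150, had 15.2 ± 3.23 normalized FPKM (SD, n = 10) in CD150hi HSC, 1.25 ± 0.766 (n = 10) in CD150lo HSC and 0.128 ± 0.0443 (n = 9) in CD150neg MPP, in the order of the sort. Markers of mature cells were not uniform. The summed FPKM of the granulocyte and monocyte genes Elane, Mpo, S100a8 and S100a9 ranged from 43.9 to 763 in WT CD150hi HSC and from 12.3 to 115 in 5A3+/del CD150hi HSC, and from 7.06 to 1249.9 over the other groups. The T cell genes Cd3e and Cd3g had at most 45 and 3 fragments in any library.

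Levels are given as normalized FPKM, which are fragments per kilobase of exon scaled to library size, after quantile normalization of log2(FPKM + 1), transformed back. Differences are on the log2(FPKM + 1) scale with their standard error (SE), which understates changes of low genes. Because FPKM is per length, levels of different genes are set side by side here, but the RNA was amplified, and bias between genes was not measured. Over all 29 libraries, Eed (median 25.0), the PRC2 subunit that binds the trimethyl mark, and Suz12 (median 22.5), its structural partner, were highest. Rnf2, the catalytic ubiquitin ligase of PRC1, had a median of 18.4, and Bmi1, which activates it, 15.8. Asxl1 (14.6), Ezh1 (11.7) and Cbx7 (8.20) followed, and Cbx2 (3.38) and Cbx8 (1.02) were lowest. From the lowest to the highest library, Asxl1 spanned 12.5 to 19.1, the narrowest range by ratio, and Cbx2 1.16 to 6.10.

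**Figure D1:**
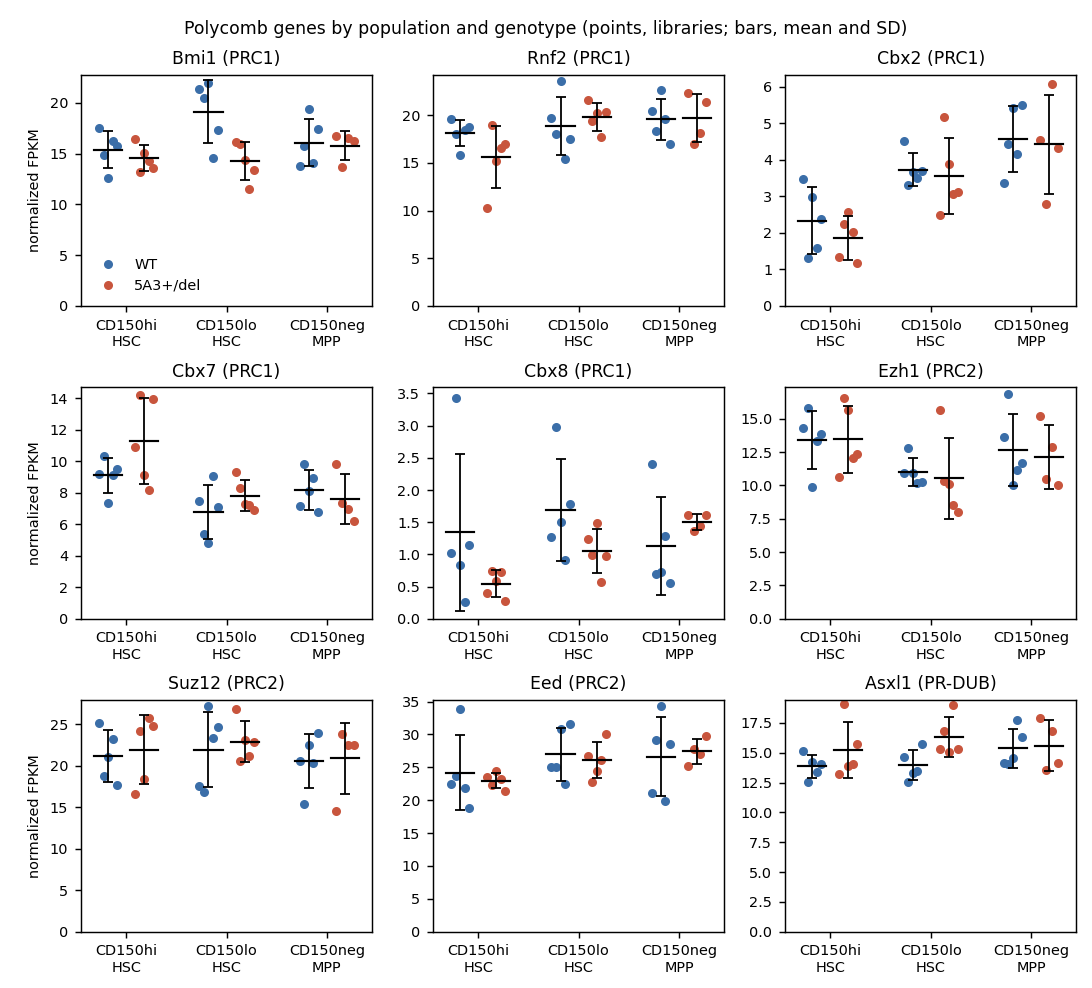
Normalized FPKM of the 9 Polycomb genes (vertical axes, linear, from 0) in WT and 5A3+/del libraries of CD150hi HSC, CD150lo HSC and CD150neg MPP (horizontal axes). Points are libraries and bars give the mean and SD of each group. Cbx2 rises and Cbx7 falls from CD150hi to CD150lo HSC, and the ranges of the populations overlap for each of the 9 genes.

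The first comparison asked whether the 9 genes differ between stem cell populations, with the difference averaged over both genotypes. The Cbx subunits of PRC1 differed in opposite directions. Cbx2 was lower in CD150hi HSC than in CD150lo HSC and CD150neg MPP, and Cbx7 was higher in CD150hi HSC than in CD150lo HSC. By limma with Benjamini-Hochberg adjustment over all genes, 2 of 9 genes were called between CD150hi and CD150lo HSC, beside 7.64% of all genes tested. Between CD150hi HSC and CD150neg MPP it was 1 of 9, beside 13.2%, and between CD150lo HSC and CD150neg MPP 0 of 9, beside 0.292%. At an unadjusted p under 0.05 the counts were 4, 3 and 0 of 9, beside 19.5%, 24.9% and 7.93% of all genes. The median log2 difference of the 9 genes was -0.13 between CD150hi and CD150lo HSC and -0.087 between CD150hi HSC and CD150neg MPP, where the medians of all genes were -0.0052 and -0.0046. A count of 1 or 2 among 9 genes is too small for its share to be read against these backgrounds. In sorted pools, fewer cells that express a gene and less RNA per cell cannot be told apart.

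Cbx2, a chromodomain subunit that compacts chromatin, had the lowest mean of the 9 genes in CD150hi HSC after Cbx8. In WT mice 1 to 5 it was at 3.47, 1.31, 2.98, 1.58 and 2.37 normalized FPKM in CD150hi HSC, at 4.51, 3.31, 3.67, 3.49 and 3.70 in CD150lo HSC and at 3.38, 4.44, 5.43, 4.15 and 5.51 in CD150neg MPP. In 5A3+/del mice 1 to 5 it was at 1.33, 2.25, 2.56, 2.03 and 1.16 in CD150hi HSC and at 2.48, 5.18, 3.89, 3.07 and 3.13 in CD150lo HSC, and in mice 1 to 4 at 4.54, 2.78, 6.10 and 4.33 in CD150neg MPP. Each mouse had less Cbx2 in CD150hi than in CD150lo HSC (10 of 10), although the ranges of the populations overlapped, with the CD150hi libraries of WT mice 1 and 3 and 5A3+/del mouse 3 above the lowest CD150lo library. The means were 2.10 ± 0.77 in CD150hi HSC (SD, n = 10), 3.64 ± 0.765 in CD150lo HSC (n = 10) and 4.52 ± 1.05 in CD150neg MPP (n = 9). Between CD150hi and CD150lo HSC the log2 difference was -0.60 (SE 0.14, adjusted p = 0.00423). Against CD150neg MPP it was -0.84 (SE 0.14, adjusted p = 7.54e-05), and CD150hi HSC were lower in 8 of 9 mice, WT mouse 1 being the exception. The difference between CD150lo HSC and CD150neg MPP did not pass the test (-0.24, SE 0.14, adjusted p = 0.7145). Both calls held under 20 of 20 alternative settings, but their sizes depended on the setting. The difference ran from -0.82 to -0.29 against CD150lo HSC and from -1.11 to -0.42 against CD150neg MPP.

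Cbx7, the chromodomain subunit that is best known for self-renewal of HSC and embryonic stem cells, was the higher of both genes in every library. WT mice 1 to 5 had 9.21, 10.3, 7.33, 9.10 and 9.51 normalized FPKM in CD150hi HSC, then 7.48, 5.40, 4.78, 9.07 and 7.11 in CD150lo HSC and finally 7.13, 9.82, 8.09, 8.96 and 6.75 in CD150neg MPP. 5A3+/del mice 1 to 5 had 10.9, 14.2, 9.13, 8.20 and 14.0 in CD150hi HSC and 9.32, 8.32, 7.31, 7.19 and 6.92 in CD150lo HSC, and mice 1 to 4 had 9.83, 7.37, 6.95 and 6.21 in CD150neg MPP. Again 10 of 10 mice moved the same way, with more Cbx7 in CD150hi than in CD150lo HSC. In WT mouse 4 the step was small, and 5A3+/del mice 2 and 5 were the highest. The means were 10.2 ± 2.28 (SD, n = 10), 7.29 ± 1.43 (n = 10) and 7.90 ± 1.35 (n = 9) in the same order. The log2 difference between CD150hi and CD150lo HSC was 0.43 (SE 0.11, adjusted p = 0.0158). Against CD150neg MPP it was 0.32 (SE 0.12), which did not pass the test (adjusted p = 0.0673). The call between CD150hi and CD150lo HSC was lost without WT mouse 2 (0.37, adjusted p = 0.0604), without 5A3+/del mouse 2 (0.40, adjusted p = 0.0522) and without 5A3+/del mouse 5 (0.37, adjusted p = 0.0670). Without 5A3+/del mouse 1 the difference from CD150neg MPP was called (0.38, adjusted p = 0.0396).

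**Figure D2:**
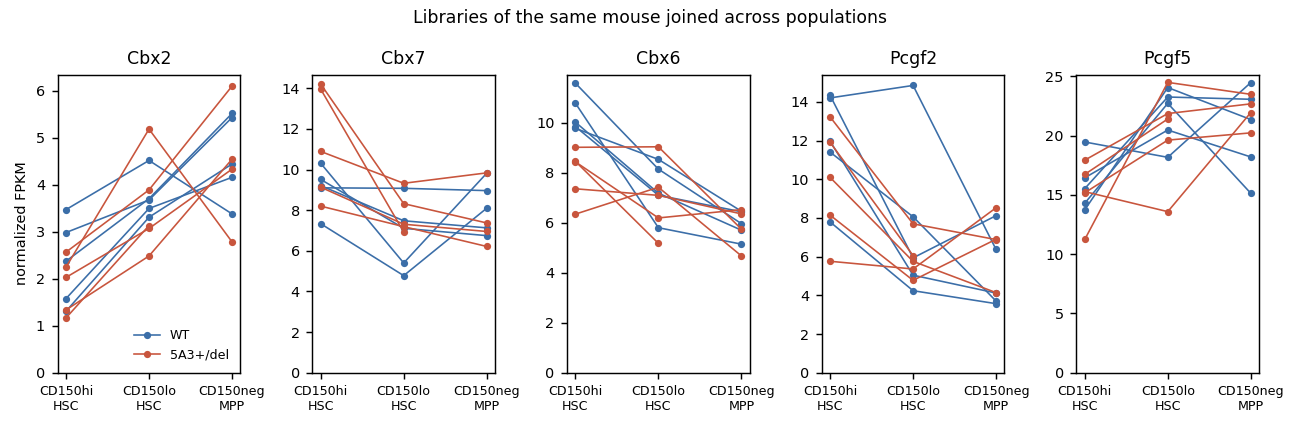
Normalized FPKM (vertical axes, linear, from 0) of Cbx2, Cbx7 and the PRC1 genes Cbx6, Pcgf2 and Pcgf5 in each population (horizontal axes), with lines joining the libraries of 1 mouse and colors marking the genotype. All 10 Cbx2 lines rise and all 10 Cbx7 lines fall from CD150hi to CD150lo HSC.

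Cbx8, another chromodomain subunit, had the lowest fragment counts of the 9 genes. It had 39 to 349 fragments in WT CD150hi HSC and 1 to 93 in 5A3+/del CD150hi HSC, and 55 to 314 in CD150lo HSC and 74 to 199 in CD150neg MPP of both genotypes. The library with 1 fragment, from 5A3+/del mouse 1, is below the floor of 3 fragments, and quantile normalization places it at 0.395 normalized FPKM from a deposited value of 0.0102. WT mouse 2 stood apart, with 3.43 normalized FPKM in CD150hi HSC and 2.99 in CD150lo HSC, where the other WT libraries ended at 1.15 and 1.79. The log2 differences of CD150hi HSC from CD150lo HSC (-0.34, SE 0.17, adjusted p = 0.274) and CD150neg MPP (-0.32, SE 0.18, adjusted p = 0.278) did not pass. Without WT mouse 2 the second was called (-0.48, adjusted p = 0.0257).

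Of the core PRC1 genes, Rnf2 had 16.9 ± 2.71 (SD, n = 10) normalized FPKM in CD150hi HSC, 19.4 ± 2.31 (n = 10) in CD150lo HSC and 19.6 ± 2.17 (n = 9) in CD150neg MPP. The differences from CD150hi HSC were -0.20 (SE 0.093, adjusted p = 0.241) and -0.22 (SE 0.096, adjusted p = 0.146). The lowest library, 5A3+/del mouse 1 in CD150hi HSC at 10.3, was the one that held 1 fragment of Cbx8. Bmi1 had 15.0 ± 1.56, 16.7 ± 3.54 and 15.95 ± 1.87 in the same order (SD, n = 10, 10 and 9), and its largest difference was -0.13 (SE 0.088, adjusted p = 0.457).

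PRC2 genes did not pass in any population comparison. Ezh1, the methyltransferase that prevails in resting cells, had 13.4 ± 2.23 in CD150hi HSC (SD, n = 10), 10.8 ± 2.15 in CD150lo HSC (n = 10) and 12.4 ± 2.42 in CD150neg MPP (n = 9). The difference between CD150hi and CD150lo HSC was 0.30 (SE 0.12, adjusted p = 0.133), with the same sign in 8 of 10 mice. Without 5A3+/del mouse 1, whose CD150hi library was at 10.7 and whose CD150lo library was at 15.6, the difference was called (0.40, adjusted p = 0.0148). Suz12 differed by -0.055, 0.059 and 0.11 in the 3 population comparisons. Eed differed by -0.17 (SE 0.10, adjusted p = 0.386) and -0.19 (SE 0.10, adjusted p = 0.274) from CD150lo HSC and CD150neg MPP. Asxl1, the PR-DUB scaffold, differed by -0.053 (95% interval -0.21 to 0.11) and -0.087 (-0.25 to 0.077), the narrowest intervals of the 9 genes.

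**Figure D3:**
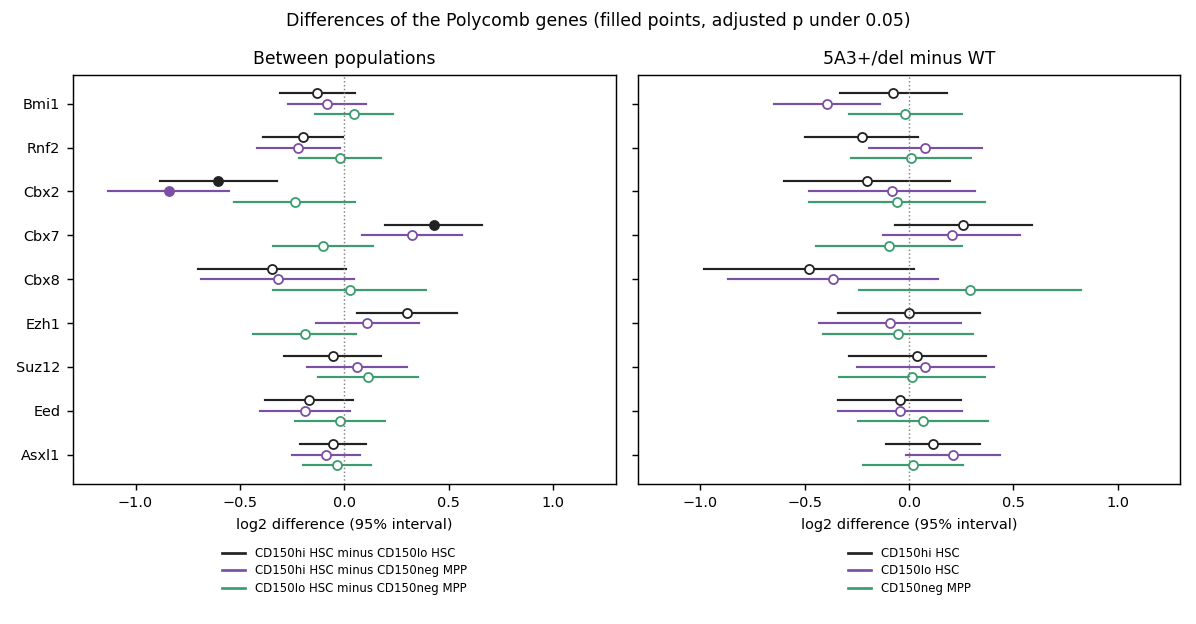
Log2 differences (horizontal axes) of the 9 Polycomb genes (rows) between populations, averaged over genotypes, on the left and between 5A3+/del and WT mice within each population on the right. Lines are 95% intervals, colors mark the comparison, and filled points have an adjusted p under 0.05, which holds for Cbx2 in 2 population comparisons, for Cbx7 in 1 and for no genotype comparison.

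The other 41 Polycomb genes of a list of subunits, partners and H3K27 demethylases were examined in the same fit, and 40 passed the filter. Between CD150hi and CD150lo HSC, 2 were higher and 1 lower, and the count was the same against CD150neg MPP. Set beside the 7.64% and 13.2% of all genes called in these comparisons, 3 of 40 is no more than the background. The genes called were PRC1 genes, as were 21 of the 40 tested, and no enrichment was tested. The median log2 differences of the 40 genes were 0.030 and 0.017. Cbx6, a further chromodomain subunit, had 9.16 ± 1.57 normalized FPKM in CD150hi HSC (SD, n = 10), 7.17 ± 1.21 in CD150lo HSC (n = 10) and 5.89 ± 0.65 in CD150neg MPP (n = 9). It was higher in CD150hi than in CD150lo HSC (0.31, SE 0.088, adjusted p = 0.0248, 8 of 10 mice). The difference from CD150neg MPP was 0.55 (SE 0.091, adjusted p = 6.41e-05, 9 of 9 mice). Both exceptions against CD150lo HSC carried the deletion. They were 5A3+/del mouse 1 (9.02 in CD150hi and 9.04 in CD150lo HSC) and 5A3+/del mouse 2 (6.34 and 7.42). Pcgf2 (Mel18), a paralogue of Bmi1, had 10.9 ± 2.88, 6.78 ± 3.08 and 5.81 ± 1.95 in the same order. The differences were 0.64 (SE 0.18, adjusted p = 0.0269, 9 of 10 mice) and 0.80 (SE 0.19, adjusted p = 0.00399, 8 of 9 mice). The exception against CD150lo HSC was WT mouse 1 (14.2 in CD150hi and 14.9 in CD150lo HSC), and that against CD150neg MPP was 5A3+/del mouse 1 (5.76 in CD150hi HSC and 8.53 in CD150neg MPP). Pcgf5, which belongs to a variant PRC1 without Cbx subunits, went the other way, with 15.6 ± 2.28, 20.97 ± 3.26 and 21.2 ± 2.93. It differed by -0.40 (SE 0.10, adjusted p = 0.0141, lower in CD150hi HSC in 8 of 10 mice) and -0.43 (SE 0.11, adjusted p = 0.00691, 9 of 9 mice). The exceptions against CD150lo HSC were WT mouse 3 (19.5 in CD150hi and 18.2 in CD150lo HSC) and 5A3+/del mouse 4 (15.3 and 13.6). Against CD150neg MPP the calls of Cbx6, Pcgf2 and Pcgf5 held in 20 of 20 alternatives, and against CD150lo HSC in 13, 13 and 18 of 20. The call of Cbx6 was lost when only the contrasted populations were fitted (adjusted p = 0.0542) and without any of WT mice 2, 3, 4 or 5 and 5A3+/del mice 3 or 5 (adjusted p = 0.0502 to 0.0950). That of Pcgf2 was lost with no filter on low values (adjusted p = 0.0557) and without any of WT mice 2 or 4 and 5A3+/del mice 2, 3, 4 or 5 (0.0550 to 0.0869). That of Pcgf5 was lost without WT mouse 4 (0.0646) and without 5A3+/del mouse 2 (0.0771).

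Because PRC1 holds 1 Pcgf subunit, the Pcgf genes were also expressed as a share of the summed deposited FPKM of their family, given here for CD150hi HSC, CD150lo HSC and CD150neg MPP in this order (SD, n = 10, 10 and 9). Among the 6 Pcgf genes, Bmi1 held 24.0 ± 2.93%, 25.6 ± 4.11% and 24.1 ± 1.68%, whereas Pcgf2 held 17.2 ± 4.19%, 10.2 ± 3.05% and 8.96 ± 3.17% and Pcgf5 24.9 ± 4.26%, 32.3 ± 3.96% and 32.2 ± 3.98%. Rnf2 held 72.3 ± 4.88%, 73.4 ± 4.75% and 72.8 ± 4.60% of the sum of Rnf2 and Ring1, its paralogue. The shares were not tested, and they carry the same limit of unmeasured bias between genes.

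**Figure D4:**
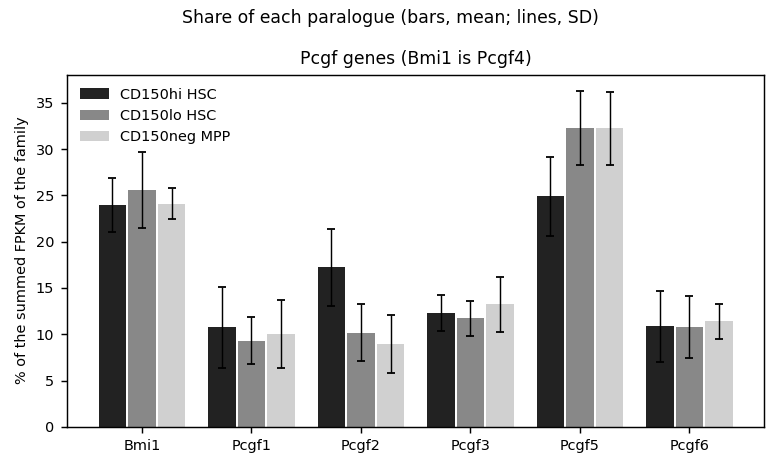
Share of each gene in the summed FPKM of the 6 Pcgf genes, in % (vertical axis, linear, from 0). Bars are means and lines the SD over 10, 10 and 9 libraries of CD150hi HSC, CD150lo HSC and CD150neg MPP. From CD150hi HSC to CD150neg MPP the mean share of Pcgf2 goes from 17.2% to 8.96% and that of Pcgf5 from 24.9% to 32.2%, and Bmi1 lies between 24.0% and 25.6%.

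Promoter sequences are shown for Cbx7, Pcgf2, Cbx6 and Pcgf5, the genes called between populations that have an entry in the RefSeq promoter table for build GRCm38.p6, a later build than the mm9 of the expression table. Each window runs 5′ to 3′ on the gene's strand from 250 bases before to 50 bases after the start. Capitals mark GC boxes (GGGCGG) and CCAAT boxes (CCAAT), searched on both strands, and no match of one overlapped a match of the other. The E2F, E box, ETS, GATA, RUNX and TATA box motifs were also searched and are not marked.
Cbx7 (chr15:79932597-79932896, - strand): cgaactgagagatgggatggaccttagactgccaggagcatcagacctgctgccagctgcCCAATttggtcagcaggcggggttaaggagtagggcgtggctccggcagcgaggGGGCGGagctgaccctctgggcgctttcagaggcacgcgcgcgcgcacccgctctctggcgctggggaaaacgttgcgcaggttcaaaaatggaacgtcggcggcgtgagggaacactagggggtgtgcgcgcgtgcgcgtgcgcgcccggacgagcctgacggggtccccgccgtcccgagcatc
Pcgf2 (chr11:97699599-97699898, - strand): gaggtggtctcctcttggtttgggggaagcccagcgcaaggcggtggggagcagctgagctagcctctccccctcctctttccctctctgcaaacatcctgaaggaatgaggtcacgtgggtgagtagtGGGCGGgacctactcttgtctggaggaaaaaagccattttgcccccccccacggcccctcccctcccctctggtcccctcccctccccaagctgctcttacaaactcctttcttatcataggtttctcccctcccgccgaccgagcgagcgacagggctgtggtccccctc
Cbx6 (chr15:79834284-79834583, - strand): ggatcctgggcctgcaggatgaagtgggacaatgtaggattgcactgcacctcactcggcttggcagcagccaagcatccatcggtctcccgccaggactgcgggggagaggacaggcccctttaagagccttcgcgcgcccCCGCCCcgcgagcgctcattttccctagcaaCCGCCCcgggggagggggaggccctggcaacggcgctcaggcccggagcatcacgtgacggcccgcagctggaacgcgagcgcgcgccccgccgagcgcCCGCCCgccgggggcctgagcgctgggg
Pcgf5 (chr19:36348079-36348378, + strand): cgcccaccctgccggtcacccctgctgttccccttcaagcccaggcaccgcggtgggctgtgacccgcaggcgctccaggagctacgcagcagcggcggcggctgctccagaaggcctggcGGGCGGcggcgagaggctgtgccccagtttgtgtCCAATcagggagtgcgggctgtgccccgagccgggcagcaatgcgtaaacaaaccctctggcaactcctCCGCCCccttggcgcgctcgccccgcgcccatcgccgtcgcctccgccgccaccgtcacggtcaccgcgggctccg
A GC box was found in each of these windows and in 35.9% of all 27025 promoters, and a CCAAT box in Cbx7 and Pcgf5 and in 37.9% of all. Members not called between populations also had them, with GC boxes in Bmi1, Rnf2, Cbx8, Suz12 and Asxl1 and CCAAT boxes in Cbx8, Suz12 and Eed. Ezh1 had neither. The GC content of the windows shown ranged from 61.7% (Pcgf2) to 73.0% (Pcgf5). Of the 9 genes, 8 have an entry, Cbx2 being the exception. Their GC content ranged from 54.0% (Asxl1) to 72.7% (Rnf2), beside a median of 52.7% over all promoters. A match to these letters is a description and not a binding site.

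The 9 genes did not rise and fall as a unit over the 29 libraries, which share mice, so that these correlations are descriptions. The highest Pearson r between members was 0.50 for Cbx7 and Ezh1, followed by 0.47 for Rnf2 and Cbx2. The lowest was -0.54 for Cbx2 and Cbx7, followed by -0.51 for Cbx7 and Eed. Among 15407 genes, those most like Cbx2 were Hnf4a (r = 0.81), Rfc2 (0.80) and BC035044 (0.79), and the gene most like Cbx7 was Uba7 (0.78). The closest genes were D1Ertd622e for Bmi1 (0.74), Maml1 for Rnf2 (0.77), Siah2 for Cbx8 (0.69), Glt8d1 for Ezh1 (0.70), Cisd2 for Suz12 (0.78), Zfp658 for Eed (0.71) and Glud1 for Asxl1 (0.72). Since the populations differ in many genes, such values also reflect the populations.

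Cycling cells were measured beside these results with 14 marker genes such as Mki67 and Top2a. None was called between populations by limma (3, 5 and 0 of 14 at an unadjusted p under 0.05, beside the same 19.5%, 24.9% and 7.93% of all genes), and the median log2 difference was -0.23 between CD150hi and CD150lo HSC, with 13 of 14 below 0, and -0.22 between CD150hi HSC and CD150neg MPP. Their summed FPKM ranged from 119 to 185 in CD150hi HSC, 147 to 218 in CD150lo HSC and 142 to 327 in CD150neg MPP. The sum leans on single genes. Ccnb2 reached 144 normalized FPKM in 1 CD150neg MPP library, beside a median of 13.9 in that population, and the highest sum in WT CD150neg MPP was 211. The r of the log2 sum over the 29 libraries, that library included, was 0.40 with Cbx2, -0.55 with Cbx7, -0.56 with Ezh1, -0.61 with Cbx6 and 0.57 with Pcgf5. Within the 10 CD150hi libraries it was 0.11, -0.30, -0.65, -0.27 and 0.46. Over the 29 libraries it was -0.025 with Bmi1, 0.081 with Rnf2, 0.071 with Cbx8 and 0.25 with Suz12. It was 0.44 with Eed, 0.082 with Asxl1 and -0.47 with Pcgf2. For these 7 genes it was -0.57, -0.27, -0.31, 0.018, 0.32, 0.027 and -0.40 within the CD150hi libraries. Of the markers of other cell types, Mpo was lower (-1.50, SE 0.46, adjusted p = 0.0298) and Itga2b higher (0.58, SE 0.16, adjusted p = 0.0159) in CD150hi HSC than in CD150neg MPP, calls that held in 9 of 20 and 16 of 19 alternatives. Their lists did not move one way in that comparison, with 2 of 4 granulocyte and monocyte genes above 0 (median -0.098) and 2 of 4 megakaryocyte genes above 0 (median 0.037). By limma, 0 of 13 tested markers were called between CD150hi and CD150lo HSC, and 6 reached an unadjusted p under 0.05, beside 19.5% of all genes. Of the 13, 2 had a difference above 0 (median -0.48), and of the 4 granulocyte and monocyte genes 0 did (median -1.18). The part of cycling or of mature cells in the differences of Cbx2 and Cbx7 was not tested.

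Of a list of 10 genes that Polycomb is known to silence or restrain in other settings, 9 were analysed here and 4 passed the filter (Ebf1, Hmga2, Hoxa9 and Hoxa10). Cdkn2b, an inhibitor of the cell cycle, had at most 6 fragments in any library. Hoxa9, a homeobox gene of stem and progenitor cells, was lower in CD150hi HSC than in CD150lo HSC (-0.38, SE 0.11, adjusted p = 0.0326) and CD150neg MPP (-0.43, SE 0.11, adjusted p = 0.0105). Hmga2, a chromatin protein of fetal stem cells, was higher in CD150hi HSC than in CD150neg MPP (0.46, SE 0.12, adjusted p = 0.0112). Hoxa10, a neighbour of Hoxa9 in the Hoxa cluster, had a difference of 0.40 (SE 0.14, adjusted p = 0.0522) from CD150neg MPP and of -0.035 (SE 0.13, adjusted p = 0.925) from CD150lo HSC. The call of Hoxa9 against CD150lo HSC held in 13 of 20 alternatives, and the other 2 calls in 20 of 20. The former was lost when only the contrasted populations were fitted (adjusted p = 0.0798) and without any of WT mice 1, 3 or 4 and 5A3+/del mice 1, 2 or 3 (0.0573 to 0.123).

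The second comparison asked whether the 5A3 deletion changed the 9 genes within a population. None was called. By limma, 0 of 9 passed in CD150hi HSC, beside 0.156% of all genes, in CD150lo HSC, beside 0.0324%, and in CD150neg MPP, beside 0.0454%. At an unadjusted p under 0.05 the counts were 0, 1 and 0 of 9, beside 13.1%, 6.87% and 4.27% of all genes. The median log2 differences of 5A3+/del minus WT were -0.045, -0.043 and 0.0083, with medians of all genes at 0.0044, 0.011 and -0.0013. For the PRC2 genes the 95% intervals lay between -0.43 and 0.41 in every population.

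Bmi1 in CD150lo HSC came nearest. WT mice 1 to 5 had 21.4, 20.5, 21.9, 14.6 and 17.4 normalized FPKM, and 5A3+/del mice had 16.1, 16.0, 14.3, 11.6 and 13.4. Of the 5A3+/del mice, 3 of 5 were below the lowest WT mouse, WT mouse 4, and the groups overlapped. The means were 19.1 ± 3.11 and 14.3 ± 1.91 (SD, n = 5 each), with a log2 difference of -0.39 (SE 0.12, 95% interval -0.65 to -0.14). The adjusted p was 0.312, with 0.201 to 0.719 over the alternatives. In CD150hi HSC the means of Bmi1 were 15.4 ± 1.83 and 14.5 ± 1.29 (n = 5 each), and in CD150neg MPP 16.1 ± 2.32 (n = 5) and 15.8 ± 1.45 (n = 4). Tests of whether the Bmi1 effect differs between populations gave -0.38 (SE 0.18, adjusted p = 0.977) for CD150lo HSC against CD150neg MPP, 0.32 (SE 0.18, adjusted p = 0.999) for CD150hi against CD150lo HSC and -0.058 (SE 0.18, adjusted p = 0.964) for CD150hi HSC against CD150neg MPP.

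Other members differed less clearly between genotypes. Cbx8 in CD150hi HSC was at 1.34 ± 1.22 in WT and 0.545 ± 0.21 in 5A3+/del mice (n = 5 each), with a log2 difference of -0.48 (SE 0.24, adjusted p = 0.409). Without WT mouse 2 it was -0.21 (adjusted p = 0.726). Cbx7 in CD150hi HSC was at 9.09 ± 1.09 and 11.3 ± 2.74 (0.26, SE 0.16, adjusted p = 0.508), and 3 of 5 mice with the deletion were above the highest WT mouse. Rnf2 in CD150hi HSC was at 18.1 ± 1.41 and 15.6 ± 3.26 (-0.23, SE 0.13, adjusted p = 0.482). Here 5A3+/del mouse 1, whose library had the fewest genes above 0 (17346), was at 10.3, and the others with the deletion were at 15.2 to 19.0. The Rnf2 difference ran from -0.30 to -0.095 over the alternatives. Asxl1 in CD150lo HSC was at 13.9 ± 1.26 and 16.3 ± 1.66 (0.21, SE 0.11, adjusted p = 0.779). Cbx2 differed by -0.20, -0.0815 and -0.058 between genotypes in CD150hi HSC, CD150lo HSC and CD150neg MPP, none of which passed the test.

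Of the 40 other Polycomb genes tested, 0 were called between genotypes in any population by limma, with 6, 0 and 1 at an unadjusted p under 0.05, beside 13.1%, 6.87% and 4.27% of all genes. Among the 6 was Cbx6 in CD150hi HSC, at 9.78, 11.6, 9.85, 10.0 and 10.8 in WT mice 1 to 5 and at 9.02, 6.34, 8.43, 7.36 and 8.46 in 5A3+/del mice. Those groups did not overlap, as for 2 of the 40 genes and 2.58% of all genes in CD150hi HSC, and the log2 difference was -0.36 (SE 0.12, adjusted p = 0.202). The granulocyte and monocyte markers S100a8 and S100a9 differed in the same libraries without passing the test (-3.35, SE 1.12, adjusted p = 0.189, and -3.14, SE 1.05, adjusted p = 0.187), and their part in the Cbx6 values was not tested.

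Whether the genotype effect differs between populations was tested with an interaction term. Of the 15409 genes tested, 0% were called in each of the 3 interactions by limma, with 614, 1227 and 771 genes at an unadjusted p under 0.05. Of the 9 Polycomb genes 0 were called, and 0, 1 and 1 reached that unadjusted level. The largest value was that of Cbx8 between CD150hi HSC and CD150neg MPP (-0.77, SE 0.36, adjusted p = 0.598). The population differences of Cbx2 (-0.12, SE 0.27, adjusted p = 0.999) and Cbx7 (0.057, SE 0.23, adjusted p = 0.999) between CD150hi and CD150lo HSC did not pass the test for a difference between WT and 5A3+/del mice, with 95% intervals of -0.68 to 0.44 and -0.41 to 0.52.

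In mm9 the 9 genes are protein coding and are spread over 5 chromosomes. Cbx2 (chr11:118884276-118892584, + strand) and Cbx8 (chr11:118897619-118902283, - strand) are neighbours, and Ezh1 (chr11:101052429-101087777, - strand) and Suz12 (chr11:79806608-79847625, + strand) lie on the same chromosome. Cbx7 is at chr15:79746237-79801549 on the - strand, Bmi1 at chr2:18598645-18608256 and Asxl1 at chr2:153171581-153229743, both on the + strand. Rnf2 is at chr1:153316536-153347953 and Eed at chr7:97103166-97129493, both on the - strand. Suz12 shares 178 exonic bases with the antisense lincRNA Gm16706 and Asxl1 197 with the antisense lincRNA 2500004C02Rik, and whether the counting used strand is not given in the sources used here.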

How the data were processed

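RNA was sequenced from 29 libraries of sorted cells. According to the methods and labels, the RNA was amplified before library preparation and reads were aligned to mm9, and the processing notes name Bowtie 0.12.2 and HTSeq. The authors deposited FPKM values per gene, without counts. Each FPKM was multiplied by the exon length and divided by a step estimated for each library from the same products. The result was whole within 0.05 for 98.4 to 98.91% of low values (up to 20 fragments), for 29279 of 30025 genes matched. Fragment counts and library totals are thus inferred, and limits based on them cover only counting error. The filter required an FPKM of 1 or more in 4 or more libraries. Values were quantile normalized as log2(FPKM + 1) and fitted with limma 3.58.1 (R 4.3.3) to 6 group means, tested on simulated data first. P-values were adjusted by the Benjamini-Hochberg method over 15409 genes, with a threshold of 0.05, and tests were two-sided.

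Population differences were averaged over genotypes. The labels carry a code that ties the libraries of a mouse together. Deviations from the group means correlated between libraries of the same mouse with a median r of 0.0786 (28 pairs, -0.0418 to 0.235). Of these pairs 10 had an r over 0.1, beside 0 of 14 pairs of different mice with the same number. The study states no block, and mouse was a block only in an alternative fit. Genes named were the 9 members, other Polycomb genes that passed the threshold, genes among the 3 most correlated with each member, and defining genes of the other lists. Some results on withheld genes are not reported here. The members and lists were chosen with earlier results of these data known. Alternatives changed the pseudocount, filter, scaling, variance prior, covariates and libraries.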

Additional observations from a re-analysis of the deposited data

Results flagged for a closer look

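In 2 of 54 groups of members' values, 1 library stood apart from the rest of its group by Dixon's test, where chance alone gives about 2.7. Bmi1 in 5A3+/del CD150neg MPP was at 13.7 normalized FPKM in mouse 2 (1418 fragments) and between 16.2 and 16.8 in the other libraries of the group. Suz12 in 5A3+/del CD150neg MPP was at 14.6 normalized FPKM in mouse 1 (1958 fragments) and between 22.5 and 23.9 in the others.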

How the results depend on the processing

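With 1 mouse left out at a time, the count of the 9 Polycomb genes called ranged from 1 to 3 between CD150hi and CD150lo HSC and from 1 to 2 between CD150hi HSC and CD150neg MPP. The first was 1, with Cbx7 lost, without WT replicate 2, 5A3+/del replicate 2 or 5A3+/del replicate 5, and 3, with Ezh1 added, without 5A3+/del replicate 1. The second was 2 without WT replicate 2, with Cbx8 added, and without 5A3+/del replicate 1, with Cbx7 added. Counts under 178 combinations of comparison and setting, that of 3 included, were within 1.5 times those reported, 3 were weaker and 2 stronger. Most of the 178 come from comparisons in which 0 of 9 genes were called. There few of all genes were called, and 0 against 0 counts as unchanged, so these combinations say little about stability. With mouse as the replicate block the counts stayed at 2, 1 and 0 for the population comparisons, and with the label number as the replicate block 0 of 9 genes were called between genotypes. Samples sharing a label number across genotypes are different mice (r from -0.0338 to 0.0807, 14 pairs). The pseudocount moved Cbx8, whose difference between CD150hi and CD150lo HSC was -0.75 with 0.1 and -0.11 with 5, and Cbx8 was lost to the stricter filter at an FPKM of 5, so it has no value there. No result changed sign among those called. The cause of the changes was not tested. Cbx8 had 1 fragment in 1 library and 29 to 349 in the others.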
